A study of Mus musculus with 14 samples.

Results

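The genes described here are the mouse circadian clock genes Arntl, Clock, Per1, Per2, Per3, Cry1, Nr1d1, Nr1d2 and Ciart, and Dbp, the best known output gene of the clock in liver. They were taken by name from a list, 10 genes of the 25112 that had an estimated count above 0 in at least 1 liver library, and all 10 were among the 13127 genes that passed the filter on low counts. RNA-seq was done on 14 mouse livers. The transplant group (6 libraries, titled iBAT 2x) came from recipients of differentiated pre-adipocytes, cells of the stromal fraction of brown adipose tissue carried on silk scaffolds, and the empty scaffold group (8 libraries, titled Sham-WT) from recipients of a scaffold without cells. Per the series text, recipients were fed a high-fat diet. The labels give no age, sex, time of day or feeding state at sampling, no meaning for "2x", and do not say that each library is a separate mouse. The p-values cover the variation among these libraries, part of which may be technical.

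The clock is a transcriptional loop that runs in nearly every cell and has a period of about a day. Arntl (also called Bmal1) and Clock form the activator that binds E-box motifs. It switches on the repressors Per1, Per2, Per3 and Cry1, which then block it, and also Ciart (Chrono), another repressor of the same activator, and the nuclear receptors Nr1d1 (Rev-erb alpha) and Nr1d2 (Rev-erb beta), which bind RORE motifs and repress Arntl. Dbp is an E-box target whose protein binds D-box motifs in other genes, many of them in liver metabolism. In mouse liver the messages of Arntl and Dbp peak at opposite times of day, so the ratio of these messages depends on when a liver was taken.

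The motifs of this loop were looked for in the promoter sequences of RefSeq, which run from 250 bases before to 50 after a transcript start (build GRCm38.p6), and 9 of the 10 genes matched an entry there. Per2 had none. The E-box was searched as CACGTG, the D-box as TTATGTAA or TTACGTAA, and the RORE as AGGTCA preceded by T, by any base and by AA or AT, all on both strands, and the motifs found did not overlap one another. The E-box was in 7.15% of all 32851 promoter windows, the D-box in 1.06% and the RORE in 0.371%. These sequences show where the letters of the loop lie in the genes whose values are described below, with the motifs in capitals. Nr1d1 is included because it was the only listed gene called between the groups, and its window held none of these letters.

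Ciart (GRCm38.p6, chr3:95882229-95882478, minus strand): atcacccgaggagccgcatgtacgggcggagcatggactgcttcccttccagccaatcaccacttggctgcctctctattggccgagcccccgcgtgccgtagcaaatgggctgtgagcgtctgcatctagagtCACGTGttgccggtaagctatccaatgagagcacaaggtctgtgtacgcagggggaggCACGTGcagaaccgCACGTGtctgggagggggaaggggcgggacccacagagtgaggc
Per1 (GRCm38.p6, chr11:69098699-69098948, plus strand): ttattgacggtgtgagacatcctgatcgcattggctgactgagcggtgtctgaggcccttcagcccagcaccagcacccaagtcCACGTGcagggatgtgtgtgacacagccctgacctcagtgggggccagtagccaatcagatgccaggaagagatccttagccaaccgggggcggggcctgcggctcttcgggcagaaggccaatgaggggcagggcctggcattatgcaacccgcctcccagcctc
Cry1 (GRCm38.p6, chr10:85185055-85185304, minus strand): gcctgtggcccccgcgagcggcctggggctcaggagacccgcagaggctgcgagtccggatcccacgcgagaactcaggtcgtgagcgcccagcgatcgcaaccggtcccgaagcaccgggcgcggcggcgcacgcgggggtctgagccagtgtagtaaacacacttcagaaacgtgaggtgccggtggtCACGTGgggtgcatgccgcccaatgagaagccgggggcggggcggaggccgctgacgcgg
Per3 (GRCm38.p6, chr4:151044666-151044915, minus strand): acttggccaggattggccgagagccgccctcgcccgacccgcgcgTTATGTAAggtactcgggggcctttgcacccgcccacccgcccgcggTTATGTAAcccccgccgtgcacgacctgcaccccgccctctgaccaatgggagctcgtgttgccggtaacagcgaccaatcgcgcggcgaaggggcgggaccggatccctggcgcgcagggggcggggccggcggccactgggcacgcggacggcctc
Nr1d1 (GRCm38.p6, chr11:98775378-98775627, minus strand): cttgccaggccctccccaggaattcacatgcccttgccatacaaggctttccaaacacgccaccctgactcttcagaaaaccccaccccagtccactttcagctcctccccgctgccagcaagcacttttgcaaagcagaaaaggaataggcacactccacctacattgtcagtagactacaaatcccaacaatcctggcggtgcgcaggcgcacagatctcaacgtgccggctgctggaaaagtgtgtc
Arntl (GRCm38.p6, chr7:113207528-113207557, plus strand): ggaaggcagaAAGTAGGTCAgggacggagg

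Ciart held 3 E-boxes, which began 116, 58 and 44 bases before the start. Cry1 held an E-box 60 bases and Per1 an E-box 166 bases before the start. Per3 held 2 D-boxes, 205 and 158 bases before the start, and Arntl a RORE at bases 28 to 37 after it. The windows of Clock, Nr1d1, Nr1d2 and Dbp held none of the searched letters, which says only that these exact letters are not in these windows.

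**Figure D1:**
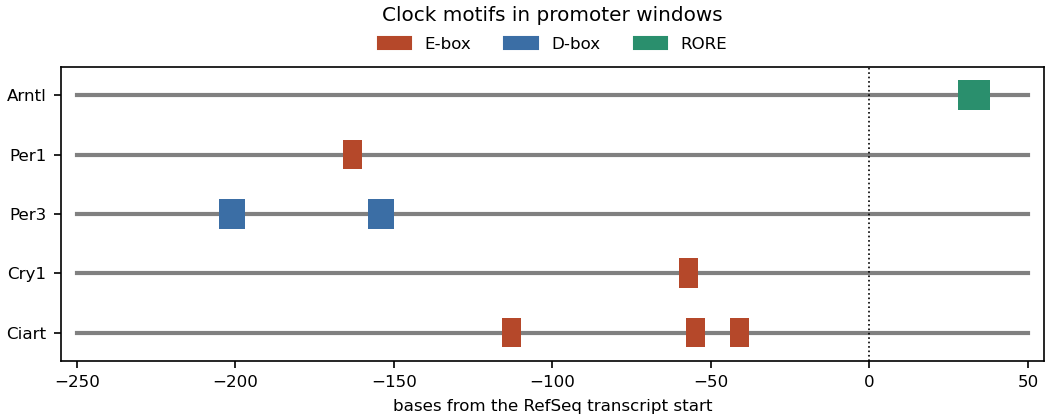
Positions of E-box, D-box and RORE letters (coloured blocks) in the promoter windows of the 5 clock genes that held any, with the distance from the RefSeq transcript start in bases on the x axis. The 3 E-boxes of Ciart lie between 116 and 39 bases before the start, and the RORE of Arntl lies after its start.

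Per-gene levels are given as CPM, counts scaled by library size and TMM factor, for comparisons between livers, and as the deposited TPM, which corrects for transcript length, for comparisons between genes. Total estimated counts were 22898793 to 28910968 per library in the transplant group and 19482580 to 28723928 in the empty scaffold group. The numbers in the library titles fall in 2 ranges, an upper range of 100 or above and a lower range below 100, each with 3 transplant and 4 empty scaffold libraries. In the lower range transplant libraries are numbered 88 to 90 and empty scaffold libraries 52 to 83. What the numbers stand for is not in the labels, and in neither range do transplant numbers lie among empty scaffold numbers, so group and number cannot be told apart there. Of the 14 libraries no pair held identical gene counts. The slope of level on transcript length also differed: it was -0.30 to 0.02 log2 CPM per doubling of length in transplant libraries and -0.10 to 0.25 in empty scaffold libraries. The 4 empty scaffold libraries of the upper range had the highest values, 0.20 to 0.25. Each comparison was therefore also computed with the length and GC trends of every library removed, and that value stands beside the main one where it ends or makes the call of a named gene or relation.

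Per length, Dbp was the most abundant of these genes and Arntl the least. Over the 14 libraries Dbp averaged 91.0 ± 24.6 TPM (SD, n = 14), Nr1d1 29.8 ± 11.4 TPM, Nr1d2 17.8 ± 9.15 TPM and Ciart 9.17 ± 3.32 TPM. Dbp exceeded Nr1d1 in 14 of 14 libraries, and Ciart exceeded Per1 in 14 of 14. Nr1d1 and Nr1d2 were neighbours whose mean ± SD overlapped, and so were Nr1d2 and Ciart. The next 5 lay close together, Per1 at 4.02 ± 1.66 TPM, Per2 at 3.06 ± 1.45 TPM, Clock at 2.75 ± 1.498 TPM, Per3 at 2.32 ± 1.20 TPM and Cry1 at 1.58 ± 0.454 TPM, and no neighbouring pair among them differed beyond its spread. Arntl followed at 0.596 ± 0.337 TPM, below Cry1 in 14 of 14 libraries.

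Arntl, the activator subunit without which the liver clock stops, had 13 to 68 estimated counts per library in the transplant group and 16 to 73 in the empty scaffold group. The exact Poisson 95% interval, which covers counting error only, was 6.92 to 22.2 for the library with 13 and 57.2 to 91.8 for the library with 73. The spread of Arntl between livers was thus wider than its counting error. Among all 10 genes, the highest library was 5.15 times the lowest for Per3, 4.89 times for Arntl, and 1.69 times for Cry1, the smallest ratio of the 10.

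**Figure D2:**
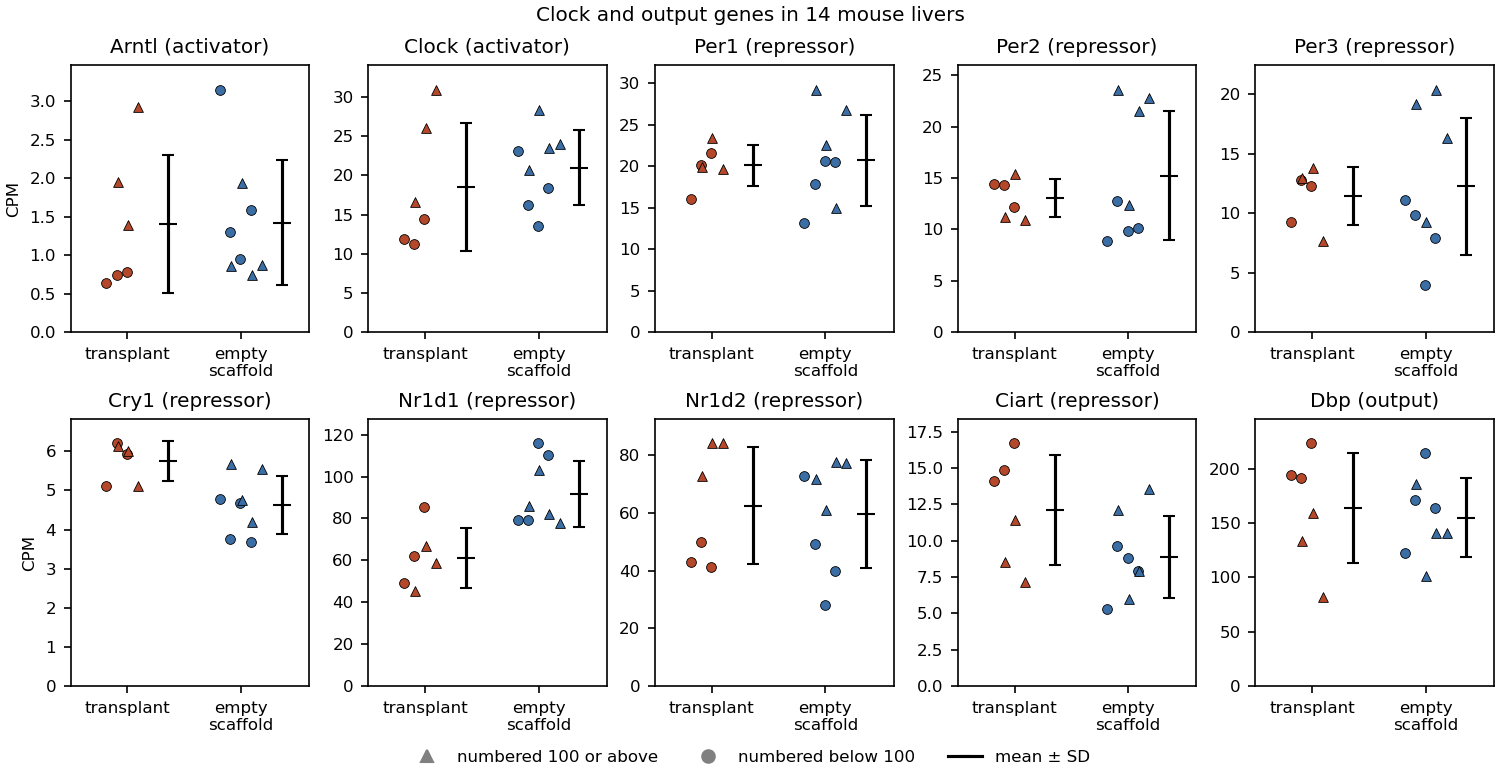
CPM (y axis, from 0) of the 10 genes in each transplant library (left) and empty scaffold library (right), with mean ± SD as bars. Triangles are libraries numbered 100 or above and circles those below 100. Only Nr1d1 was called between the groups, and 5 of its 6 transplant points lie below all 8 empty scaffold points.

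Transplant was first compared with empty scaffold in all 14 livers. Nr1d1 was the only one of the 10 genes that changed, and it fell. The 3 Per genes, the activators Arntl and Clock, and the output gene Dbp had means within the spread of either group, and Cry1 and Ciart had higher means that did not pass the test. The share of all tested genes called by edgeR's quasi-likelihood test at a Benjamini-Hochberg adjusted p under 0.05 was 7.54% in either direction, 3.31% higher and 4.23% lower, so 1 call among 10 genes is near that background. At an unadjusted p under 0.05 there were 2 of the 10, Nr1d1 and Cry1, beside 30.0% of all tested genes. In whole liver, fewer cells of a type and less RNA per cell cannot be told apart.

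Nr1d1 encodes the receptor that couples the clock to lipid and bile acid metabolism in liver. Its lowest, median and highest values were 45.3, 60.4 and 85.5 CPM in transplant livers, against 77.7, 84.1 and 116 CPM in empty scaffold livers. Transplant livers were the low ones: 5 of the 6 lay under every empty scaffold liver, and the sixth, at 85.5 CPM, lay above the median of the empty scaffold livers, so the groups overlapped. The mean was 61.2 ± 14.3 CPM in transplant livers and 91.8 ± 15.6 CPM in empty scaffold livers (SD, n = 6 and 8), a log2 fold change of -0.58 ± 0.14 (SE) with an adjusted p of 0.0298 by edgeR's quasi-likelihood test. DESeq2 gave -0.57 with an adjusted p of 0.00647. On the deposited TPM scale the groups did not overlap, with 12.3 to 25.3 TPM in transplant livers and 28.6 to 47.3 TPM in empty scaffold livers. The share of all genes without overlap on the TPM scale was not computed. That scale was lower in transplant livers for most genes: the median difference in mean log2 TPM over all tested genes was -0.46, against -1.03 for Nr1d1.

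The call for Nr1d1 was narrow. With the length and GC trends removed, its log2 fold change was -0.41 ± 0.13 with an adjusted p of 0.0660, and with an offset from the deposited effective lengths it was -0.58 ± 0.15 with an adjusted p of 0.0552, by the same edgeR test. It was called in 10 of 14 fits that each left out 1 library, with log2 fold changes of -0.71 to -0.51, and lost its call without transplant 1, transplant 3, transplant 5 or empty scaffold 8 (highest adjusted p 0.0790). Within the title-number ranges its log2 fold change was -0.62 ± 0.15 among livers numbered 100 or above (edgeR adjusted p = 0.0189) and -0.55 ± 0.21 among those below 100 (edgeR adjusted p = 0.456), so the direction and size held in both ranges while the call did not. With the range as a covariate over all 14 livers it was -0.59 ± 0.13 (edgeR adjusted p = 0.0152), where 19.7% of all tested genes were called.

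Some markers of other liver cells were also lower in transplant livers. The counts that follow stand beside 4.23% of all tested genes called lower and 3.31% called higher. They are no test against these shares, because the lists were chosen with earlier results of these data known. Of 12 Kupffer cell and macrophage markers, 5 fell in transplant livers and none rose, among them Cd5l, Csf1r and Cd68, and their summed level was 184 to 270 CPM in transplant livers and 223 to 576 CPM in empty scaffold livers. Of 10 stellate cell markers 3 fell (summed 199 to 370 against 230 to 460 CPM), and of 10 sinusoidal endothelial markers 2 fell (106 to 163 against 139 to 226 CPM). When length and GC trends were removed, 6 Kupffer cell markers fell and no stellate or endothelial marker was called. Of 14 fits that each left out 1 library, Cd5l, Csf1r, Cd68 and the endothelial marker Stab2 were called in all 14 and Cdh5 in 13 (not without transplant 1). The other markers counted lost their call more often, Col3a1 being called in 9, Col1a2 in 7, C1qb in 4, and C1qc and Lrat in 3 each. None of 7 cholangiocyte and 6 lymphocyte markers tested was called by edgeR or DESeq2, with 0 and 1 at an unadjusted p under 0.05, and their summed levels were 36.6 to 76.2 CPM and 6.36 to 21.98 CPM in transplant livers, against 46.4 to 85.2 CPM and 8.36 to 18.2 CPM in empty scaffold livers. The 10 hepatocyte markers summed to 106741 to 159751 CPM in transplant livers and 94563 to 159791 CPM in empty scaffold livers, so hepatocyte messages were abundant in every library as the tissue label says. Of these, Serpina1c rose, but it was called in 7 of the 14 fits and not with the length and GC trends removed (edgeR adjusted p = 0.0654). Cpa1 and Prss2, which mark the pancreas, were at 0 in all 14 libraries, and the adipocyte genes Adipoq, Plin1, Ucp1 and Lep were too low to be tested. Of the pancreas and muscle genes tested, Cela1 and Mylpf both rose. Mylpf kept its call in all 14 fits and with the trends removed, whereas Cela1 lost it without transplant 1, transplant 5 or empty scaffold 4 and with the trends removed (edgeR adjusted p = 0.0855). Of 4 adipocyte markers tested Pparg fell, with its call lost without transplant 1. The part of other cell types in the Nr1d1 result was not tested.

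In the annotation, exons of Nr1d1 overlap those of Thra, the thyroid hormone receptor alpha gene on the opposite strand, over 263 bases, 8.55% of the exon bases of Nr1d1. The library kit keeps strand, but the strand setting of the counting is not given in the sources used here, so reads from the shared stretch may be split between the genes. Thra averaged 12.0 ± 1.25 CPM in transplant livers and 14.6 ± 2.20 CPM in empty scaffold livers, and its log2 fold change of -0.28 ± 0.11 did not pass edgeR's test (adjusted p = 0.101). Dbp shares 539 exon bases, 18.0% of its own, with Sphk2 on the opposite strand.

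Nr1d2, the close relative of Nr1d1, did not follow it. Its lowest, median and highest values were 41.3, 61.5 and 84.1 CPM in transplant livers and 27.9, 66.4 and 77.7 CPM in empty scaffold livers, with a log2 fold change of 0.07 ± 0.23 (edgeR adjusted p = 0.864). The transplant livers split into 3 low and 3 high values by title number, a pattern described further on.

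Of the Per and Cry repressors, Cry1 came closest to a call. Cry1 is a strong repressor of the Arntl and Clock activator. It had 5.11, 5.97 and 6.21 CPM as lowest, median and highest values in transplant livers and 3.68, 4.71 and 5.67 CPM in empty scaffold livers. All 6 transplant livers were above the empty scaffold median, 4 of them above every empty scaffold liver. The mean was 5.75 ± 0.502 CPM in transplant livers and 4.63 ± 0.736 CPM in empty scaffold livers, a log2 fold change of 0.31 ± 0.12 (edgeR adjusted p = 0.0991). When length and GC trends were removed Cry1 stood at 0.49 ± 0.11 and passed edgeR's test (adjusted p = 0.0311), where 4.88% of all genes were called. With the range as a further covariate it was 0.49 ± 0.11 (edgeR adjusted p = 0.0207) and Nr1d1 -0.41 ± 0.12 (edgeR adjusted p = 0.0436), where 9.1% of all genes were called.

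The Per genes, whose proteins pair with the cryptochromes, showed no such shift. Per1 had 16.0, 20.0 and 23.5 CPM as lowest, median and highest values in transplant livers and 13.2, 20.6 and 29.3 CPM in empty scaffold livers. Per2 had 10.9, 13.2 and 15.4 CPM in transplant livers and 8.85, 12.5 and 23.6 CPM in empty scaffold livers. Per3 had 7.63, 12.5 and 13.8 CPM in transplant livers and 3.96, 10.5 and 20.4 CPM in empty scaffold livers. For all 3 the transplant livers lay inside the range of the empty scaffold livers. Their log2 fold changes were -0.04 ± 0.16 for Per1, -0.23 ± 0.22 for Per2 and -0.11 ± 0.28 for Per3, with edgeR adjusted p-values of 0.875, 0.504 and 0.819. With the length and GC trends removed all 3 signs turned, to 0.32, 0.15 and 0.26, still without a call.

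Ciart, the repressor with 3 E-boxes in its window, had 7.15, 12.7 and 16.7 CPM as lowest, median and highest values in transplant livers and 5.31, 8.37 and 13.5 CPM in empty scaffold livers. Of the 6 transplant livers 3 were above every empty scaffold liver. Its log2 fold change was 0.44 ± 0.22 and did not pass edgeR's test (adjusted p = 0.184).

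The activators and the output gene were alike in the groups within a wide spread. Arntl had 0.645, 1.09 and 2.93 CPM as lowest, median and highest values in transplant livers and 0.746, 1.12 and 3.15 CPM in empty scaffold livers, a log2 fold change of -0.00 ± 0.39 (edgeR adjusted p = 0.995). Clock had 11.2, 15.5 and 31.0 CPM in transplant livers and 13.6, 21.9 and 28.4 CPM in empty scaffold livers, a log2 fold change of -0.18 ± 0.22 (edgeR adjusted p = 0.598). Dbp had 81.6, 175.4 and 224 CPM in transplant livers and 101, 152 and 215 CPM in empty scaffold livers, a log2 fold change of 0.08 ± 0.20 (edgeR adjusted p = 0.805). The standard errors leave room for changes of some size in each of these genes, so the tests do not show that the levels were equal.

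**Figure D3:**
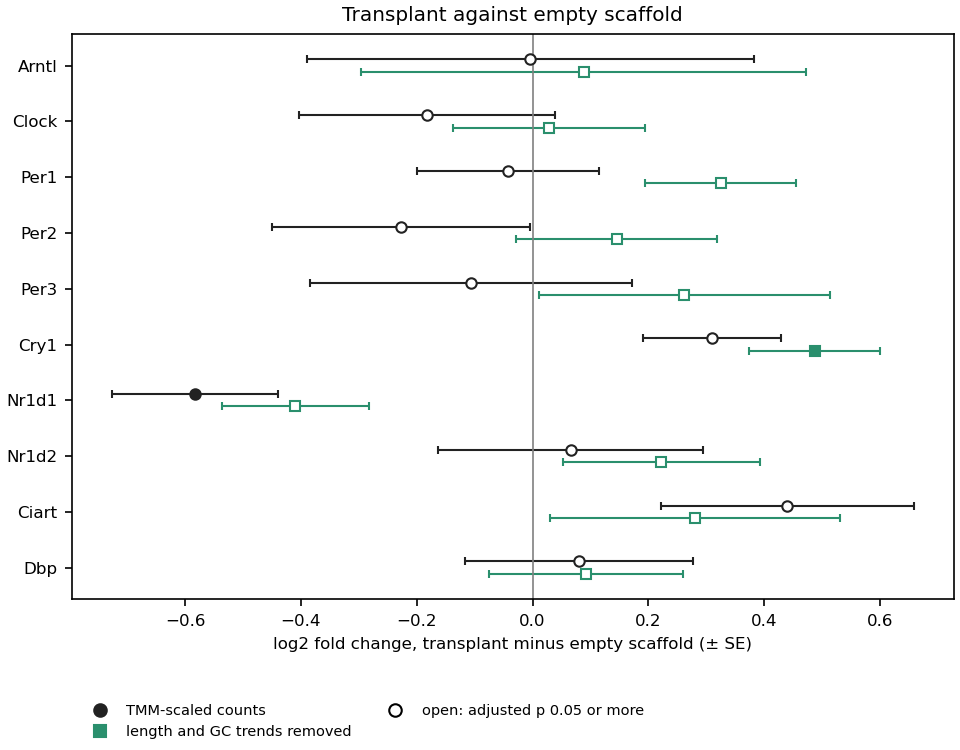
Log2 fold change of the 10 genes, transplant minus empty scaffold (x axis), with SE as bars, from TMM-scaled counts (circles) and with length and GC trends removed (squares); filled symbols passed edgeR's test. Nr1d1 stands at -0.58 and -0.41, and Cry1 at 0.31 and 0.49, each filled on 1 of these scales.

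The labels give no sampling time, so the question whether the livers were taken at different times could be put to the data only through the genes themselves. The mean log2 CPM of Arntl and Clock (the activator arm) was 2.20 ± 0.71 in transplant livers and 2.36 ± 0.43 in empty scaffold livers, and that of the 7 repressors was 4.20 ± 0.16 and 4.18 ± 0.31 (SD, n = 6 and 8). The activator arm minus the repressor arm was -2.74 to -0.77 in transplant livers and -2.53 to -0.83 in empty scaffold livers, so the groups covered almost the same range. No test was made of these sums over listed genes. The repressor arm averages genes that did not move together. Within transplant livers, Pearson's r with Arntl was 0.89 for Nr1d2 and -0.96 for Ciart. Within empty scaffold livers it was 0.008 for Nr1d2 and -0.79 for Ciart. A shared range of this score therefore cannot show that the groups were sampled at like times. Individual livers differed far more than the groups: the CPM of Dbp was 27.8 to 301 times that of Arntl in transplant livers and 38.8 to 227 times in empty scaffold livers.

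Within the transplant group, the livers fell apart by title number. The activator arm minus the repressor arm was -1.81 to -0.77 in the 3 transplant livers of the upper range and -2.74 to -2.53 in the 3 of the lower. The CPM of Dbp was 68.6, 114.6 and 27.8 times that of Arntl in those of the upper range, and 301, 258 and 284 times in those of the lower. Among empty scaffold livers the ratio was 216, 52.4, 188 and 162 in those of the upper range and 38.8, 131, 227 and 103 in those of the lower. The transplant ranges did not overlap and the empty scaffold ranges did. So few livers separate easily, and how often such a ratio of other genes does so was not computed. The ratios of the transplant livers in the lower range rest on 13, 17 and 18 estimated counts of Arntl.

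The ranges were then compared across both groups, as the term for title numbers of 100 or above minus those below 100 in a fit that also held the group. Clock and Nr1d2 were called higher in livers numbered 100 or above, and no other gene of the 10 was called. Of all tested genes, 23.4% were called between the ranges by edgeR's quasi-likelihood test, 12.5% higher and 10.9% lower, so 2 of 10 is near that background.

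Clock, the partner of Arntl, had 16.7, 26.1 and 31.0 CPM in the 3 transplant livers of the upper range and 11.8, 11.2 and 14.4 CPM in the 3 of the lower. In empty scaffold livers it had 20.7, 28.4, 23.5 and 24.1 CPM in those of the upper range and 23.1, 16.3, 13.6 and 18.4 CPM in those of the lower. The upper range was the higher one in both groups, without overlap in transplant livers and with overlap in empty scaffold livers. The share of all genes without overlap between the ranges in transplant livers was not computed. The log2 fold change between the ranges was 0.66 ± 0.15 (edgeR adjusted p = 0.00666). When length and GC trends were removed it stood at 0.31 ± 0.15 and the call was lost (edgeR adjusted p = 0.172). Clock has the longest transcripts of the 10, 8714 bases on average weighted by abundance.

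Nr1d2 had 72.9, 84.1 and 84.1 CPM in the transplant livers of the upper range and 42.9, 50.1 and 41.3 CPM in those of the lower. In empty scaffold livers it had 71.7, 61.1, 77.7 and 77.4 CPM in those of the upper range and 72.8, 49.4, 27.9 and 39.9 CPM in those of the lower. Apart from the empty scaffold liver at 72.8 CPM, every value of the upper range lay above every value of the lower one. How many of all genes separate in this way was not computed. The log2 fold change was 0.70 ± 0.15 (edgeR adjusted p = 0.00541), and 0.46 ± 0.12 with the length and GC trends removed, which still passed (edgeR adjusted p = 0.0247). Both Clock and Nr1d2 were called in all 14 fits that each left out 1 library.

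Dbp ran the other way, with a log2 fold change of -0.44 ± 0.16 between the ranges that missed the threshold (edgeR adjusted p = 0.0607), and DESeq2 called it at an adjusted p of 0.0294. Per2 (0.50 ± 0.19, edgeR adjusted p = 0.0707) and Per3 (0.56 ± 0.26, edgeR adjusted p = 0.126) did not pass over all livers. Among empty scaffold livers alone both were higher in the upper range, by 0.96 ± 0.20 for Per2 (edgeR adjusted p = 0.00611) and 0.99 ± 0.31 for Per3 (edgeR adjusted p = 0.0427), where 28.1% of all tested genes were called. Among transplant livers alone their values were -0.14 ± 0.17 and -0.02 ± 0.23, without a call, and 0.322% of all tested genes were called.

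The group effect was therefore looked at within each range. Of the 10 genes, 8 had opposite signs in the ranges: Arntl, Clock and Nr1d2 had values above 0 in the upper range and below 0 in the lower, and Per1, Per2, Per3, Ciart and Dbp the reverse. Several of these values were within their SE of 0, such as 0.02 ± 0.19 for Clock in the upper range, and Nr1d1 was below 0 in both ranges and Cry1 above 0 in both. The share of all tested genes with opposite signs in the ranges was not computed, so 8 of 10 has no background beside it. None of the 10 differences between the ranges passed edgeR's test of the interaction after adjustment, and neither did any other gene (0.0% of 13127). At an unadjusted p under 0.05, Arntl, Per2 and Ciart differed, 3 of 10 genes beside 17.3% of all tested genes. DESeq2 called 183 genes (2.04%), of which Per2 was the only listed one.

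Arntl had 1.94, 1.39 and 2.93 CPM in transplant livers of the upper range, against 0.860, 1.94, 0.746 and 0.867 CPM in empty scaffold livers of that range. In the lower range it had 0.645, 0.743 and 0.787 CPM in transplant livers, against 3.15, 1.30, 0.946 and 1.58 CPM in empty scaffold livers. Transplant livers thus held the higher mean in the upper range and the 3 lowest values in the lower range. The log2 fold change was 0.92 ± 0.38 in the upper range and -1.27 ± 0.41 in the lower (edgeR adjusted p = 0.0933 and 0.375), and the interaction was 2.20 ± 0.59 with an unadjusted p of 0.00169 and an edgeR adjusted p of 0.176.

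Per2 showed the mirror image. It had 11.2, 15.4 and 10.9 CPM in transplant livers of the upper range, against 23.6, 12.4, 21.6 and 22.8 CPM in empty scaffold livers of that range. In the lower range it had 14.4, 14.3 and 12.2 CPM in transplant livers, against 8.85, 12.7, 9.88 and 10.2 CPM in empty scaffold livers. In the upper range 3 of 4 empty scaffold livers were above all transplant livers. The log2 fold change there was -0.68 ± 0.22, which passed edgeR's test within that range (adjusted p = 0.0442), where 26.0% of all genes were called. In the lower range it was 0.39 ± 0.15 (edgeR adjusted p = 0.446), with 0.0231% of all genes called there. The interaction was -1.07 ± 0.28 with an unadjusted p of 0.0013, an edgeR adjusted p of 0.176 and a DESeq2 adjusted p of 0.0400.

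Ciart had 8.50, 11.4 and 7.15 CPM in transplant livers of the upper range, against 12.1, 5.95, 7.93 and 13.5 CPM in empty scaffold livers of that range. In the lower range it had 14.1, 14.9 and 16.7 CPM in transplant livers, against 5.31, 9.62, 8.81 and 7.92 CPM in empty scaffold livers, which did not overlap. So few livers separate easily, and the share of all genes without overlap in that range was not computed. The log2 fold changes were -0.14 ± 0.27 in the upper range and 0.95 ± 0.18 in the lower, with an interaction of -1.08 ± 0.36 (edgeR adjusted p = 0.184). Per3 had -0.51 ± 0.28 and 0.47 ± 0.28 in the ranges, with an interaction of -0.97 ± 0.46 (edgeR adjusted p = 0.299).

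**Figure D4:**
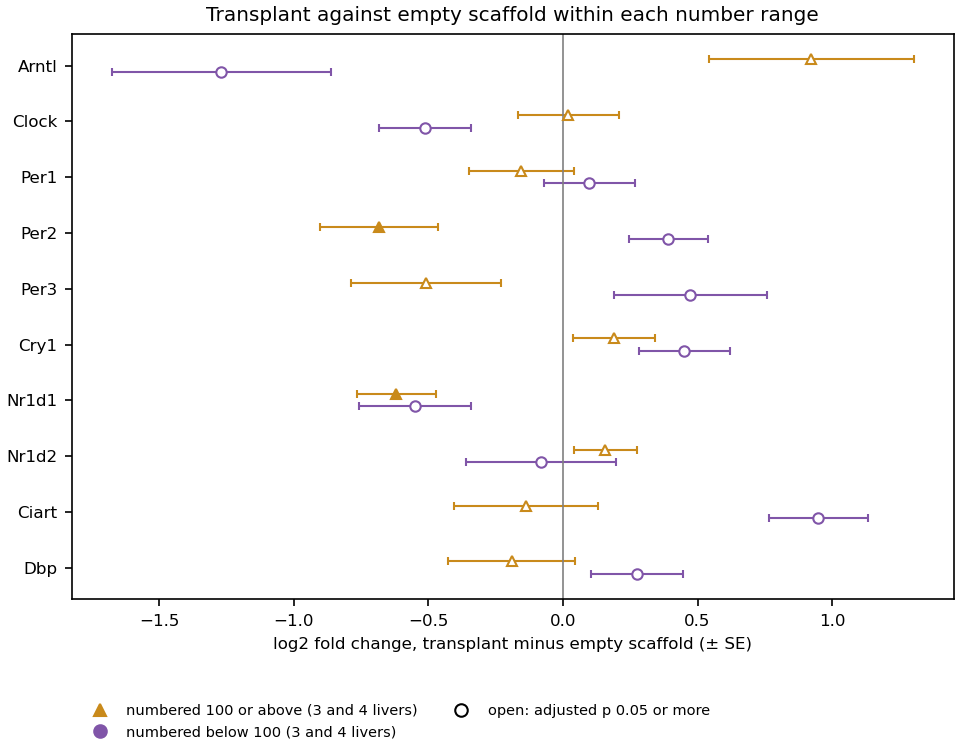
Log2 fold change of the 10 genes, transplant minus empty scaffold (x axis), with SE as bars, among livers numbered 100 or above (triangles) and below 100 (circles), 3 transplant and 4 empty scaffold livers each; filled symbols passed edgeR's test. Arntl stands at 0.92 and -1.27, Per2 at -0.68 and 0.39, and Nr1d1 at -0.62 and -0.55.

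Across livers, clock genes were compared pair by pair after each gene was centred on its group mean over both ranges. A difference between these group means could then not make a relation. A family of 16 relations was computed by permutation within groups, with Benjamini-Hochberg adjustment, and 5 passed. How many of all genes would pass with Arntl or Dbp was not computed, so 5 of 16 has no background beside it. Genes outside the clock lists reached stronger values, such as Clpx (Pearson's r = 0.94) and Chd7 (-0.91) with Arntl, and Cul2 (-0.95) with Dbp. Livers with more Arntl message had less Ciart, less Dbp and less Per2, and livers with more Dbp had more Ciart and less Nr1d2.

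Arntl and Ciart had Pearson's r = -0.87 and Spearman's rho = -0.76 (n = 14, permutation p = 0.00024, adjusted p = 0.00384). Arntl and Dbp had r = -0.77 and rho = -0.70 (permutation p = 0.00271, adjusted p = 0.0145), and Dbp and Ciart r = 0.77 and rho = 0.76 (permutation p = 0.00194, adjusted p = 0.0145). Arntl and Per2 had r = -0.63 and rho = -0.68 (permutation p = 0.00865, adjusted p = 0.0277), and Dbp and Nr1d2 r = -0.68 and rho = -0.74 (permutation p = 0.00703, adjusted p = 0.0277). The pairs that passed join the activator Arntl to E-box targets, or such targets to each other, except that Nr1d2 ran against Dbp. Other relations of the family did not pass. Arntl had r = -0.27 with Per3, -0.23 with Per1, -0.17 with Cry1 and 0.39 with Nr1d2. Dbp had r = -0.02 with Per3, 0.16 with Per2 and 0.04 with Tef.

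Within single groups the exact permutation p-values were not adjusted. Arntl with Ciart was under 0.05 in each group, and Arntl with Dbp in transplant livers. Also under 0.05 in transplant livers were Dbp with Ciart (0.00278) and Nr1d2 (0.0319), and Arntl with Clock (0.0389) and Nr1d2 (0.0486). In empty scaffold livers Arntl with Per2 was too (0.0382). Whether the groups differed in these relations was not tested. Within transplant livers r was -0.96 for Ciart and -0.94 for Dbp (n = 6, exact permutation p = 0.00833 and 0.00694), and within empty scaffold livers it was -0.79 for Ciart and -0.55 for Dbp (n = 8, exact permutation p = 0.0204 and 0.160). Without transplant 3 and empty scaffold 5, the livers farthest from the median of Arntl, r was -0.76 for Ciart, -0.63 for Dbp and -0.52 for Per2. Without transplant 3 and empty scaffold 2, the farthest for Dbp, r was 0.63 with Ciart and -0.78 with Nr1d2.

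Arntl ran with its partner Clock less clearly, with r = 0.60 (adjusted permutation p = 0.113), which passed with length and GC trends removed (r = 0.79, adjusted permutation p = 0.0103), and with Npas2, which can take the place of Clock, with r = 0.58 (adjusted permutation p = 0.113). The relations of Nr1d1 to Arntl (r = -0.12, adjusted permutation p = 0.818) and to Dbp (r = 0.32, adjusted permutation p = 0.565) did not pass. Without the livers farthest from the median of each, they were 0.02 with Arntl and 0.66 with Dbp, so the value with Dbp depended on which livers were kept.

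The relations depended on scale and on the title-number ranges. Centred on group and range together, Arntl had r = -0.86 with Dbp, -0.77 with Ciart and -0.76 with Per2, but with permutation confined to each range of each group none of the 16 passed (lowest adjusted p 0.0513). Within the 7 livers numbered 100 or above and the 7 below 100, r of Arntl was -0.83 and -0.92 with Ciart, -0.80 and -0.89 with Dbp, and -0.95 and -0.81 with Per2. In the same order, r of Dbp was 0.79 and 0.87 with Ciart, but 0.12 and -0.87 with Nr1d2. For these values within a range, genes were centred only on group means over both ranges. A group difference inside a range therefore remained in them. Dbp with Nr1d2 also failed to pass when centred on group and range (r = -0.42, adjusted permutation p = 0.338) and with length and GC trends removed (r = -0.52, adjusted permutation p = 0.170). On log2 TPM 1 relation passed, Dbp with Ciart (r = 0.81, adjusted permutation p = 0.013), and Arntl had r = -0.43 with Ciart and -0.03 with Per2. The values of a library share its scaling and its length trend on each scale.

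**Figure D5:**
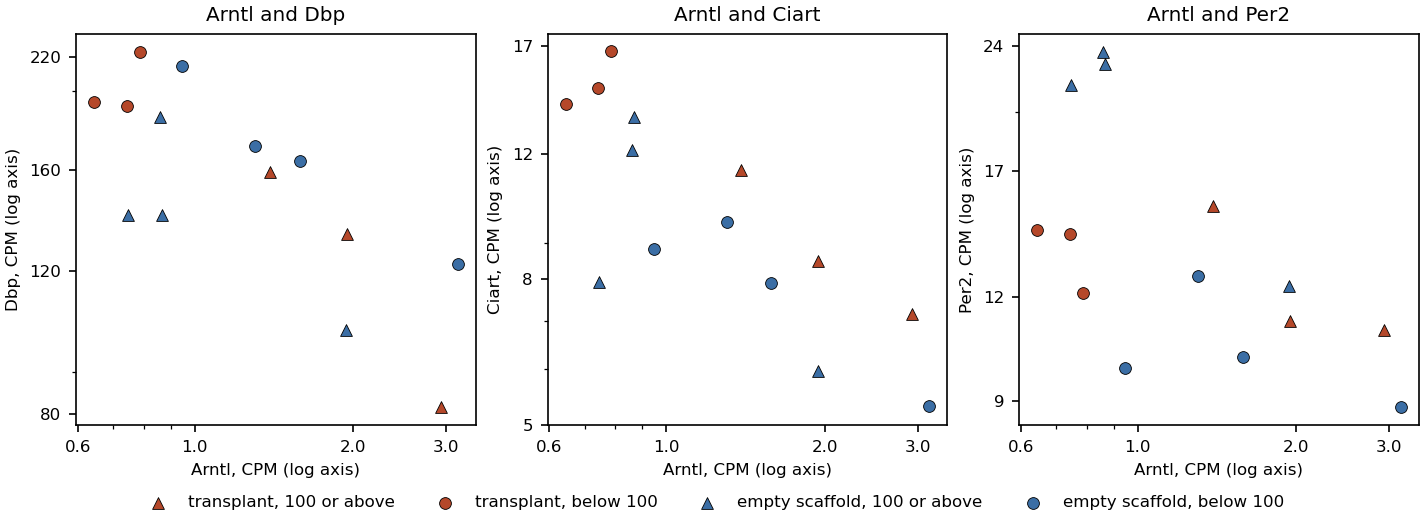
CPM of Dbp, Ciart and Per2 (y axes, log scale) against CPM of Arntl (x axes, log scale) in the 14 livers, by group (colour) and title-number range (triangles 100 or above, circles below). Livers with more Arntl had less Dbp and Ciart, and the 3 transplant livers of the lower range sit at the low Arntl end.

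Of 10966 genes with a mean of at least 1 CPM, those whose log2 CPM pattern over the 14 livers was most like that of Arntl were Clpx, M6pr, Rnf41, Crem and Tmem143 (r = 0.94 for Clpx to 0.92 for Tmem143), and the most opposite were Chd7, Safb2, Gdf10, Cd93 and Sik1 (r = -0.91 for Chd7 to -0.89 for Sik1). For Dbp the most alike were Hook2, Map2k3, Nfib, Ncl and Hnrnpd (r = 0.92 for Hook2 to 0.89 for Hnrnpd), and the most opposite were Cul2, Eif1a, Chka, Tmed7 and Nt5dc1 (r = -0.95 for Cul2 to -0.91 for Nt5dc1). These values describe the 14 libraries, are the extremes of many genes, and are no test.

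The other genes of the clock pathway were read from further lists. Of the other core clock genes 8 were tested and none was called between the groups by edgeR's quasi-likelihood test or by DESeq2, with 2 at an unadjusted p under 0.05, the related E-box repressors Bhlhe40 and Bhlhe41. Bhlhe40 averaged 57.7 ± 11.4 CPM in transplant livers and 74.0 ± 11.7 CPM in empty scaffold livers, a log2 fold change of -0.36 ± 0.13 (edgeR adjusted p = 0.0903), and Bhlhe41 had -0.51 ± 0.19 (edgeR adjusted p = 0.0849). Nfil3, which competes with Dbp at D-boxes, had 0.39 ± 0.19 (edgeR adjusted p = 0.170). The relatives of Dbp, Tef and Hlf, had 0.00 ± 0.15 and -0.12 ± 0.11 and Cry2 -0.07 ± 0.13, and none of these 3 passed edgeR's test. Npas2 was too low to be tested, at 0.0874 to 0.449 CPM in transplant livers and 0.158 to 0.518 CPM in empty scaffold livers. The median log2 fold change of the 8 was -0.09, against -0.02 over all tested genes.

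Of the kinases, ligases and cofactors that act on clock proteins, 13 were tested and none was called between the groups by edgeR or DESeq2, with 1 at an unadjusted p under 0.05 (median -0.06). Between the ranges, Fbxw11, a ligase subunit that marks Per proteins for breakdown, was higher in livers numbered 100 or above by 0.62 ± 0.13 (log2, edgeR).

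Of 20 genes driven by the clock in liver, 3 rose in transplant livers and none fell, beside 3.31% of all tested genes called higher. Their median log2 fold change was 0.34. This list too was chosen with earlier results of these data known. Its counts, here and in the other settings below, are therefore no test against the shares over all genes. Coq10b, which acts in coenzyme Q biology in mitochondria, averaged 36.8 ± 7.80 CPM in transplant livers and 22.3 ± 3.53 CPM in empty scaffold livers, a log2 fold change of 0.72 ± 0.13 (edgeR adjusted p = 0.0133). Upp2, a uridine phosphorylase, averaged 304 ± 75.3 CPM in transplant livers and 182 ± 40.7 CPM in empty scaffold livers, a change of 0.74 ± 0.16 (edgeR adjusted p = 0.0211). Tspan4, a tetraspanin, averaged 61.0 ± 10.2 CPM in transplant livers and 45.3 ± 6.05 CPM in empty scaffold livers, a change of 0.43 ± 0.11 (edgeR adjusted p = 0.0376). Leaving out 1 library at a time, Coq10b was called in 14 of 14 fits, Upp2 in 13 (not without transplant 5) and Tspan4 in 4 (without transplant 2 or empty scaffold 5, 6 or 7). All 3 kept their call with the length and GC trends removed, where 5 of the 20 were called higher, and DESeq2 called 8 higher. Those 2 settings called 4.88% and 14.1% of all genes in either direction. Wee1, a cell cycle kinase gene with E-boxes, had -0.17 ± 0.27 (edgeR adjusted p = 0.693).

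Lists of genes that respond to signals able to shift the liver clock were read beside these. Of 10 genes induced by glucocorticoids, Fkbp5, a chaperone of the glucocorticoid receptor, was the only one called, a share near the 7.54% of all tested genes called in either direction. It averaged 50.5 ± 17.2 CPM in transplant livers and 29.7 ± 10.2 CPM in empty scaffold livers, a log2 fold change of 0.76 ± 0.22 (edgeR adjusted p = 0.0446). It was called in 4 of 14 fits that each left out 1 library, those without transplant 6 or empty scaffold 4, 5 or 7, and its log2 fold change was 0.57 to 0.92 over the 14. Tsc22d3, known as Gilz, had 0.46 ± 0.18 (edgeR adjusted p = 0.112), and the median of the 10 was 0.31, with the lowest at 0.11.

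Of 8 genes that follow body temperature, edgeR called only Hspa1a, which is again near that background. This heat-shock chaperone gene fell. Its level was 0.268 to 0.413 CPM in transplant livers and 0.469 to 0.922 CPM in empty scaffold livers, which did not overlap, as was the case for 1.27% of all tested genes. The change was -0.85 ± 0.24 (edgeR adjusted p = 0.0413, DESeq2 adjusted p = 0.0502), and it was called in 5 of 14 fits that each left out 1 library (those without empty scaffold 1, 2, 5, 6 or 7). Its near-identical copy Hspa1b had -0.12 ± 0.19 (edgeR adjusted p = 0.689), and reads of the pair may be split between them. With the length and GC trends removed Hspa1a was no longer called (-0.62, edgeR adjusted p = 0.138), and Dnajb1 was, 0.52 higher (edgeR adjusted p = 0.0313). DESeq2 also called Dnajb1 higher (adjusted p = 0.0255) and called no gene of this list lower. At an unadjusted edgeR p under 0.05, Hspa1a was lower, and Hspa8, Hsph1 and Dnajb1 were higher by 0.31, 0.38 and 0.34. The median log2 fold change of the 8 was 0.16. Cirbp, the cold-inducible RNA-binding protein gene, averaged 16.3 CPM in transplant livers and 15.7 CPM in empty scaffold livers and had 0.06 ± 0.14 (edgeR adjusted p = 0.807). Of 13 fasting and feeding genes tested none was called by edgeR or DESeq2, with 4 at an unadjusted p under 0.05 and a median of 0.03.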

How the data were processed

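RNA-seq of 14 mouse livers was used. Per the labels' protocols, total RNA with a RIN above 7 was made into stranded mRNA libraries. Per the submitters' processing notes, fastp 0.20, kallisto 0.46.1, DESeq2 1.38 and build GRCm39 were named, with no roles. No source used here gives the annotation release or the strand setting. For each transcript the authors deposited an estimated count, a TPM, a length and an effective length, per the file headers.

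Of 128803 transcripts, 120608 (93.6%) matched GENCODE M21, an annotation of GRCm38, and held 99.4% to 99.5% of the counts. The deposited estimated counts were summed per gene and rounded. Genes were kept by filterByExpr, scaled by TMM and tested with edgeR 4.0.16 (quasi-likelihood F test, robust, two-sided, R 4.3.3), with Benjamini-Hochberg adjustment over 13127 genes and a threshold of 0.05. The deposited TPM values were only described, with differences taken on log2(TPM + 0.01). Relations used log2 CPM and 100000 permutations within groups, or all of them within a group (SciPy 1.17.1, NumPy 2.4.6). Length and GC trends were removed as natural splines with 4 degrees of freedom. Alternatives were RLE factors, DESeq2 1.42.0, no filter, effective-length offsets, leaving out each library, and the title-number range as a covariate or subset. The fits were tested on simulated data. The members and lists were chosen with earlier results of these data known. Text names all listed clock genes, called genes of the other lists (up to 6 each) and a fixed set of clock, hormone and temperature genes.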

Additional observations from a re-analysis of the deposited data

How the results depend on the processing

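No paired analysis was possible because the labels give the libraries no shared replicate numbers. Of the transplant calls, 990 genes in the main comparison, an effective-length offset left 316, length and GC removal 640, livers below 100 gave 3, and DESeq2 gave 1956, the range covariate 2580 and livers of 100 or above 3488; leaving out 1 library gave 138 to 1908. Of the listed genes (main 1), an effective-length offset and livers below 100 left 0, livers of 100 or above and the covariate with length and GC removal gave 2, and leaving out 1 library 0 to 1. Between ranges (main 3073 genes, 2 listed), length and GC removal gave 1629 and 1, transplant livers alone 38 and 1, and leaving out 1 library 2081 to 4615 and 2 to 3, with 4615 without transplant 1. For the interaction (main 0), DESeq2 gave 183 genes and 1 listed. Of 5 relations, 1 passed on log2 TPM and 0 within ranges. The repressor arm difference was 0.02, and -0.40 on log2 TPM, where the median of all tested genes was -0.46. The cause of these shifts was not tested.

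Signs turned, all without a call, for transplant against empty scaffold: Arntl (0.011 with RLE, 0.0047 with DESeq2, 0.088 with length and GC removal, 0.069 with the covariate added, 0.92 at 100 or above), Clock (0.028 with length and GC removal, 0.020 at 100 or above), Per1, Per2 and Per3 (0.32, 0.15 and 0.26 with length and GC removal, 0.32, 0.18 and 0.30 with the covariate added, 0.10, 0.39 and 0.47 below 100), Nr1d2 (-0.082 below 100), Ciart and Dbp (-0.14 and -0.19 at 100 or above). Leaving out 1 library gave -0.35 to 0.27 for Arntl, -0.12 to 0.045 for Per1, -0.24 to 0.037 for Per3, -0.041 to 0.16 for Nr1d2 and -0.032 to 0.22 for Dbp. Between ranges, signs turned for Arntl (-0.68 in empty scaffold livers, and -0.010 to 0.56 leaving out 1 library), Ciart (0.056 with length and GC removal, 0.34 in empty scaffold livers), and in transplant livers Per2 (-0.14), Per3 (-0.018) and Cry1 (-0.021). For the interaction, length and GC removal gave 0.14 for Per1 and 0.10 for Nr1d1. Relations that turned on log2 TPM were Arntl with Nr1d1 (0.10), Per3 (0.10), Cry1 (0.25) and Per1 (0.16), and Dbp with Nr1d2 (0.046) and Per3 (0.46). Dbp with Per3 was 0.21 within ranges and 0.15 with length and GC trends removed, a setting chosen after seeing the data that also gave 0.11 and 0.064 for Arntl with Nr1d1 and Per1, and 0.79 for Arntl with Clock (adjusted permutation p = 0.0103). Depth limits Arntl most, at 13 to 73 estimated counts.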
